A study of Mus musculus with 19 samples.

Results

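The late stretch of the knockout arm was followed in 4 libraries of the 19 in the series, KO1 and KO2 at day 10 (D10) against KO1 and KO2 at day 2 (D2), chosen by their titles and paired by line. Their deposited lists of 5hmC peaks held 474811 peaks on chromosomes 1 to 19, out of 1601520 peaks in the 18 lists of the whole series, and 1390 further peaks of these libraries on other chromosomes were set aside. The cells were mouse pre-iPSCs, stalled intermediates of reprogramming made from embryonic fibroblasts, grown with 50 µg/mL ascorbic acid and 2i, a GSK3 inhibitor (CHIR-99021) with a MEK inhibitor (PD-0325901). The labels give this treatment to every library with a list, the day 0 (D0) ones included. Beside them stand the D0 libraries of the same lines, 3 wild-type (WT) libraries at each of D0, D2 and D10 (replicates A, B and C), and 1 library each of V6.5 mouse embryonic stem cells (mESC) at 0, 12 and 72 hours. Neither the gene deleted nor its identity between the lines is given in the labels. Each line has 1 library a day, so a line has no replicate of its own. Positions are on mm9, for which no gene annotation was used here, so regions carry positions and no gene names, and the cell type could not be checked against markers.

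5-Hydroxymethylcytosine (5hmC) is made by TET enzymes, which oxidise 5-methylcytosine as a step toward unmethylated DNA. Ascorbic acid is known to raise TET activity, and 2i favours the naive pluripotent state. In fibroblast reprogramming, 5hmC is redistributed at regulatory DNA as fibroblast sites close and pluripotency sites open, so its position is often read as a trace of the path a culture has taken.

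Both KO lines had shorter lists at D10, and most of the difference lay in KO1. The D10 lists held 111808 peaks (KO1) and 111075 peaks (KO2), against D2 lists of 138007 and 113921 peaks. The lists of KO1 and KO2 were of nearly the same length at D10, while that of KO1 was the longer at D2. On the log2 scale the number changed by -0.30 in KO1 and -0.04 in KO2, a mean of -0.17 (two-sided exact permutation p = 0.333, the smallest that 2 against 2 libraries can give). Covered DNA was 51.8 Mb in KO1 and 43.1 Mb in KO2 at D10, against 64.2 Mb and 43.7 Mb in the same lines at D2 (mean log2 change -0.16, exact permutation p = 0.667). Without KO1 D2 that mean was 0.11, and without KO2 D2 it was -0.44. KO1 had the wider peaks on both days, with medians of 380 bp in KO1 and 328 bp in KO2 at D10, against 376 bp and 321 bp at D2. Sequencing depth relative to the shared input, recovered from the steps of the authors' fold values, was 1.47 in KO1 and 1.16 in KO2 at D10, against 1.67 and 1.23 at D2. Depth and list length thus moved together in both lines, and the part of depth in the shorter lists was not tested. To compare equal numbers of peaks, overlaps and windows use the 54997 strongest peaks of each library by the authors' -log10 p, the length of the shortest pre-iPSC list.

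In their strongest peaks the KO lines stayed closer to their own D2 lists than WT replicates did. They shared less with each other at D10 than at D2, as WT replicates also did. The overlap of 2 lists is given as the bp they share in percent of the bp in either. A D10 list overlapped the D2 list of its own line by 39.8% in KO1 and 30.9% in KO2, against 13.6%, 11.0% and 8.70% in WT A, B and C. Both KO values lay above all 3 WT values. Between the lines, KO1 and KO2 shared 28.9% at D0, 27.7% at D2 and 19.6% at D10. WT replicates of a day shared 30.8% ± 3.67 at D10 and 47.5% ± 1.73 at D2 (SD over 3 pairs that share libraries). A smaller overlap at D10 was thus not particular to KO. KO1 at D10 was nearer to KO2 at D2 (27.9%) than to KO2 at D10, and KO2 at D10 was nearer to KO1 at D2 (26.7%) than to KO1 at D10. With all deposited peaks in place of the strongest, the lines shared 24.5% at D10 against 32.6% at D2. These overlaps have no test, since each line has 1 library a day.

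The lines parted along the study's own time axis. KO1 overlapped its own D0 list by 31.3% at D10, against 19.7% at D2, while KO2 overlapped its own D0 list by 10.1% at D10, against 19.6% at D2. The change between days was 11.6 points in KO1 and -9.5 points in KO2, and 11.5 and -9.5 points without chromosome 5, where KO1 holds an excess of peaks. WT lists shared 5.35%, 4.67% and 3.15% with their own D0 list at D10, against 16.9%, 19.2% and 19.4% at D2 (A, B and C). The WT D0 lists, which come from other libraries, gave the same order. KO1 shared 24.9% ± 3.06 with them at D10 against 16.5% ± 1.59 at D2, and KO2 shared 9.32% ± 0.471 at D10 against 14.9% ± 1.20 at D2 (SD over 3 WT lists). A single KO list stands behind each mean, so the spread is that of the WT lists and not of KO. In neither line did the D10 values overlap the D2 values. With all deposited peaks they did in KO1, at 21.7% to 33.6% at D10 against 15.5% to 24.1% at D2, and did not in KO2, at 10.4% to 14.1% at D10 against 14.7% to 21.5% at D2. With the WT D10 lists the order was turned round, at 7.70% ± 1.52 for KO1 at D10 against 10.6% ± 1.77 at D2, and 14.0% ± 1.80 for KO2 at D10 against 10.7% ± 1.63 at D2. The ranges over the WT D10 lists touched here, from 6.08% to 9.08% for KO1 at D10 against 8.59% to 12.0% at D2. For KO2 they ran from 12.0% to 15.4% at D10, against 8.89% to 12.1% at D2. Both lines stayed nearest to WT D2 among the WT days, with 37.8% ± 2.15 for KO1 and 26.8% ± 0.346 for KO2 at D10, against 41.0% ± 1.60 and 29.8% ± 0.611 at D2.

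**Figure D1:**
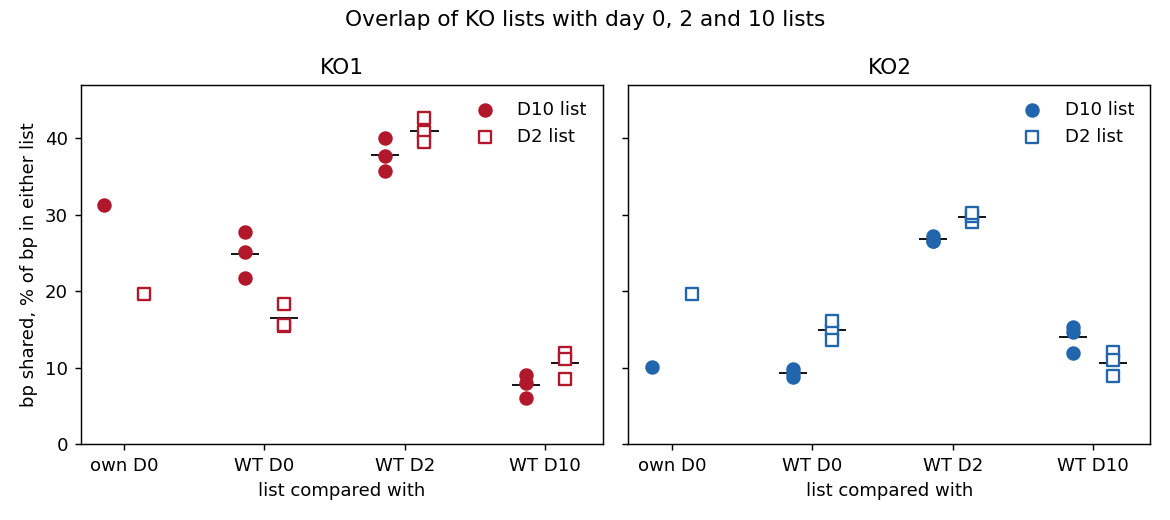
Overlap (bp shared in percent of bp in either list, 54997 strongest peaks) of each KO list at D10 (filled) and D2 (open) with the D0 list of its own line and with the 3 WT lists of each day; points are lists and black lines are means over the 3 WT lists. Toward D0 lists KO1 lies higher at D10 (31.3% with its own) and KO2 lower (10.1%) than at D2, and toward WT D10 lists the order is turned round.

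Peaks of the 4 KO lists merged into 217003 regions when every deposited peak was used and a region was called present in a list at 1 bp. Few regions changed alike in both lines. Present at D10 and absent at D2 in both (gained) were 1346 regions, 0.62% of all, and present at D2 and absent at D10 in both (lost) were 4546, or 2.09%. More regions went opposite ways, 15614 (7.20%), of which 5270 were gained in KO1 and lost in KO2 and 10344 were lost in KO1 and gained in KO2. Present in all 4 lists were 38567 regions, 17.8% of the regions but 31.8 of their 104.0 Mb, with a median length of 702 bp against 384 bp over all regions. Taken line by line, KO1 gained 28112 and lost 54121 regions, and KO2 gained 41749 and lost 43356. Of the regions KO1 gained, 4.79% were gained and 18.7% lost in KO2, while 66.2% had no KO2 peak on either day. Of those KO2 gained, 3.22% were gained and 24.8% lost in KO1, and 54.1% had no KO1 peak. The shares lost in the other line thus lay near its share lost over all regions, so opposite moves were not in excess of that share. The shares gained alike lay below the share gained over all regions. These are counts of presence in single lists and carry no test. With the strongest peaks alone, 1282 were gained and 2090 lost in both, against 8445 that went opposite ways.

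**Figure D2:**
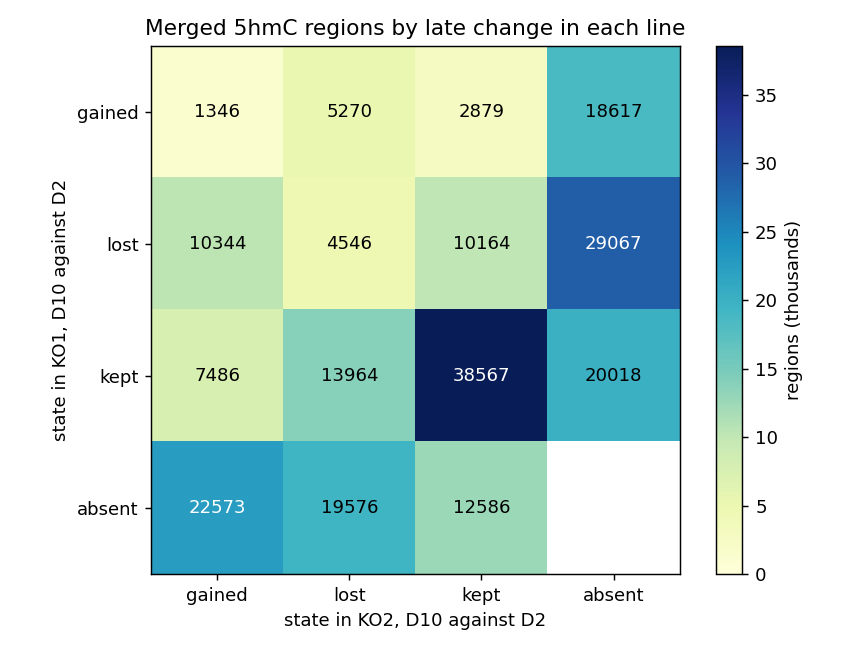
Number of merged regions by state in KO1 (down) and KO2 (across), D10 against D2: gained (D10 peak only), lost (D2 peak only), kept (both days) or absent (neither day). The empty corner is empty by construction, the kept corner holds 38567 regions, and the gained and lost cells off the diagonal (5270 and 10344) each hold more than those on it (1346 and 4546).

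The longest regions of each kind show what such a change looks like. The longest gained in both, chr14:12942448-12943587, was covered over 1076 bp in KO1 and 260 bp in KO2 at D10 and had no peak at D2, and 2 of 3 WT D2 lists had a peak there but no D0 or WT D10 list did. At chr14:76910444-76911395 the lines gained alike, with 726 bp in KO1 and 685 bp in KO2 at D10 against none at D2. Each of the 5 longest gained regions had a peak in 2 or 3 WT D2 lists and in no WT D10 list. Among the 5 longest losses, chr16:31191363-31192669 had no peak in either line at D10, against 1307 bp in KO1 and 390 bp in KO2 at D2. Losses were more even at chr2:168428928-168430145, with no peak at D10 against 1127 bp in KO1 and 883 bp in KO2 at D2. That region also had a peak in both KO D0 lists, 2 WT D0 lists, 3 WT D2 lists and 1 WT D10 list.

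The longest regions in which a single line changed were those where the other line had a peak on both days. A region merges the peaks of all the KO lists, so peaks in more lists lengthen it, and that order is no separate result. KO1 had no peak at D10 at chr9:77800327-77803150, against 2320 bp at D2, while KO2 covered 2336 bp at D10 and 2305 bp at D2. KO2 had no peak at D10 at chr7:51607399-51610078, against 569 bp at D2, while KO1 covered 2662 bp at D10 and 1958 bp at D2. That region had a peak in both KO D0 lists, 2 WT D0 lists and 3 WT D2 lists and in no WT D10 list. At chr8:37164511-37167426 KO2 covered 1122 bp at D10 and none at D2, while KO1 covered 2480 bp and 2453 bp. Where neither day had a peak in the other line, the longest gain was chr13:12196906-12198268 in KO1 (1363 bp at D10) and chr13:56123763-56125013 in KO2 (1251 bp at D10). The KO1 gain had a peak in both KO D0 lists and no WT D10 list, and the KO2 gain had a peak in no D0 list and in 2 WT D10 lists.

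Opposite moves, for which the examples were chosen after their values were seen, include chr6:58783325-58784956. It was covered over 1632 bp in KO1 and not in KO2 at D10, against no peak in KO1 and 617 bp in KO2 at D2. Both KO D0 lists and all WT D0 and D2 lists had a peak there, and no WT D10 list did. The reverse was seen at chr7:75890549-75892301, with no peak in KO1 and 807 bp in KO2 at D10, against 1753 bp in KO1 and none in KO2 at D2. No D0 list had a peak there, and 2 WT D2 and 2 WT D10 lists did.

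WT lists, which took no part in defining the classes, separated the gains of the lines over all regions. Regions gained in KO1 had a peak in 39.7% ± 14.1 (WT D0), 33.8% ± 6.85 (WT D2) and 5.99% ± 1.95 (WT D10) of cases (SD over 3 lists a day). Regions gained in KO2 had a peak in 11.8% ± 3.15, 38.6% ± 9.11 and 21.5% ± 4.65 of cases for the same days. Over all 217003 regions the shares were 29.0% ± 7.90, 50.2% ± 7.64 and 18.7% ± 4.40. The KO1 gains were thus above all regions at WT D0 and below them at WT D10 in mean, and the KO2 gains the other way at WT D0. Losses mirrored this. Regions lost in KO1 had a WT D0 peak in 12.1% ± 4.69 and a WT D10 peak in 19.8% ± 4.25 of cases, and regions lost in KO2 in 31.7% ± 10.1 and 9.62% ± 2.86. In mean, the KO1 losses lay below all regions at WT D0 and near them at WT D10. The KO2 losses lay near all regions at WT D0 and below them at WT D10. Lists of a day differ in length, which widens the SDs, but the single lists did not overlap between the gains of the lines at WT D0 or at WT D10. The gains of a line come from a single library a day, so these ranges are of WT lists and not of KO. The WT D0 share ran from 24.3% to 52.0% in the KO1 gains and from 9.46% to 15.4% in the KO2 gains. The WT D10 share ran from 3.97% to 7.87% in the KO1 gains and from 16.2% to 24.9% in the KO2 gains. For regions that changed alike, shares at WT D0, D2 and D10 were 28.9% ± 6.94, 52.3% ± 10.5 and 16.9% ± 5.34 when gained and 19.7% ± 8.77, 51.4% ± 12.3 and 14.7% ± 3.56 when lost.

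Seen from the WT side, the lines differed by class of WT region. WT regions were classed by the days on which all 3 WT lists, or none, had a peak, and classes are given by the share of regions with a peak in a KO list. KO lists are used whole here, and that of KO1 at D2 is the longest. Of 7268 regions present at WT D0 only, 28.6% had a peak in KO1 and 4.13% in KO2 at D10, against 11.8% and 11.1% at D2. Of 9638 present at WT D10 only, 1.51% had a peak in KO1 and 15.0% in KO2 at D10, against 8.17% and 7.29% at D2. In both of these classes the lines were close at D2 and far apart at D10. Of 12325 present at WT D0 and D2 and gone at WT D10, 93.8% had a peak in KO1 and 56.0% in KO2 at D10, against 89.5% and 74.8% at D2. The 3879 present at WT D2 and D10 but not D0 had a peak in 59.1% of cases in KO1 and 83.4% in KO2 at D10, against 88.4% and 67.0% at D2. For the 13602 regions of WT D2 only, the shares were 55.0% in KO1 and 50.6% in KO2 at D10, against 77.4% and 47.3% at D2. The 3409 regions present on all WT days had a peak in nearly every case, at 97.2% in KO1 and 90.8% in KO2 at D10, against 98.4% and 94.6% at D2, with both lines slightly lower at D10. Of the 6 classes, KO1 at D10 lay above KO1 at D2 in WT D0 only and in WT D0 and D2, and below it in the others. WT D0 C, for which no relative depth was obtained, was also left out, a choice made after the data were seen. With WT D0 C left out of the definition, the WT D0 only class grew to 24157 regions, with a peak in 23.1% in KO1 and 4.23% in KO2 at D10, against 9.52% and 11.3% at D2.

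**Figure D3:**
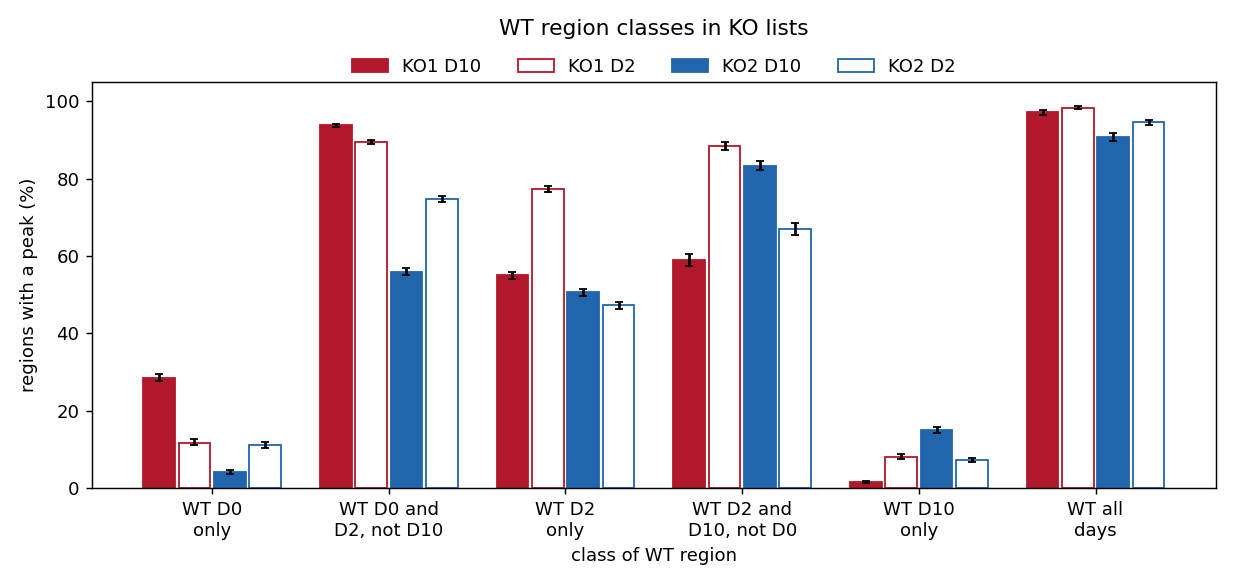
Share of regions with a peak in each KO list (D10 filled, D2 open; KO1 red, KO2 blue) by the WT days on which the region was present; bars start at 0 and error bars are 95% Wilson intervals, which cover counting error only. In the WT D0 only and WT D10 only classes both lines lie near each other at D2 and apart at D10 (28.6% against 4.13%, and 1.51% against 15.0%).

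The mESC lists gave a further measure that the classes did not use. The labels of these samples state that peaks were not called for them, yet lists are deposited, so how the lists were made is uncertain. Of the strongest peaks, 3.23% in KO1 and 6.17% in KO2 at D10 overlapped the mESC 72 hour list, against 4.08% and 4.76% at D2. The late change was -0.85 points in KO1 and 1.41 points in KO2, against 14.04, 14.18 and 13.36 points in WT A, B and C. The difference between the mean late changes, KO minus WT, was -13.58 points (exact permutation p = 0.1, the smallest that 2 against 3 differences can give). For the 12 hour list the late change was -2.60 points in KO1 and 2.51 points in KO2, against 8.02, 8.10 and 7.54 points in WT. For the 0 hour list it was -1.38 points in KO1 and 1.13 points in KO2, against -5.66, -6.26 and -6.62 points in WT, and the KO1 value turned to 0.23 with all deposited peaks. The lines moved in opposite directions against each of the 3 mESC lists among the strongest peaks. Of the regions each line gained, 1.68% in KO1 and 4.53% in KO2 lay in the 72 hour list, and of those it lost, 3.75% in KO1 and 1.91% in KO2 did. Over all 217003 regions the share was 3.63%, so the KO1 losses lay near that level.

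How much of a D2 list lasted to D10 depended on peak strength in both lines. Since a shorter list offers fewer peaks to meet, the 54997 strongest peaks of both days were compared, a choice made after the data were seen. Of these D2 peaks, 59.8% in KO1 and 50.5% in KO2 met a D10 peak, against 28.7%, 24.4% and 20.9% in WT A, B and C. In the strongest decile it was 94.9% in KO1 and 82.7% in KO2, against 50.7%, 41.3% and 33.1% in WT. The weakest decile held 34.7% in KO1 and 32.0% in KO2, against 19.2%, 15.8% and 15.8% in WT. Both KO lines thus lay above the 3 WT replicates at either end, with no test. The same number of peaks covered less DNA at D10 in WT A, B and C (21.8, 21.4 and 17.6 Mb) than in KO1 (31.4 Mb) and KO2 (25.0 Mb). The part of covered DNA in these shares was not tested. With all deposited peaks, where the D10 lists of WT are the shorter ones, 60.0% of D2 peaks in KO1 and 59.2% in KO2 had a D10 peak, against 27.4%, 24.1% and 17.6% in WT. Peaks of 2 kb or longer numbered 264 in KO1 and 47 in KO2 at D10, against 409 and 53 at D2. All of these D10 peaks had a D2 peak of the same line. Of the D2 ones, 406 of 409 in KO1 and 53 of 53 in KO2 had a D10 peak, but only 120 in KO1 and 12 in KO2 had a D10 peak that long.

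**Figure D4:**
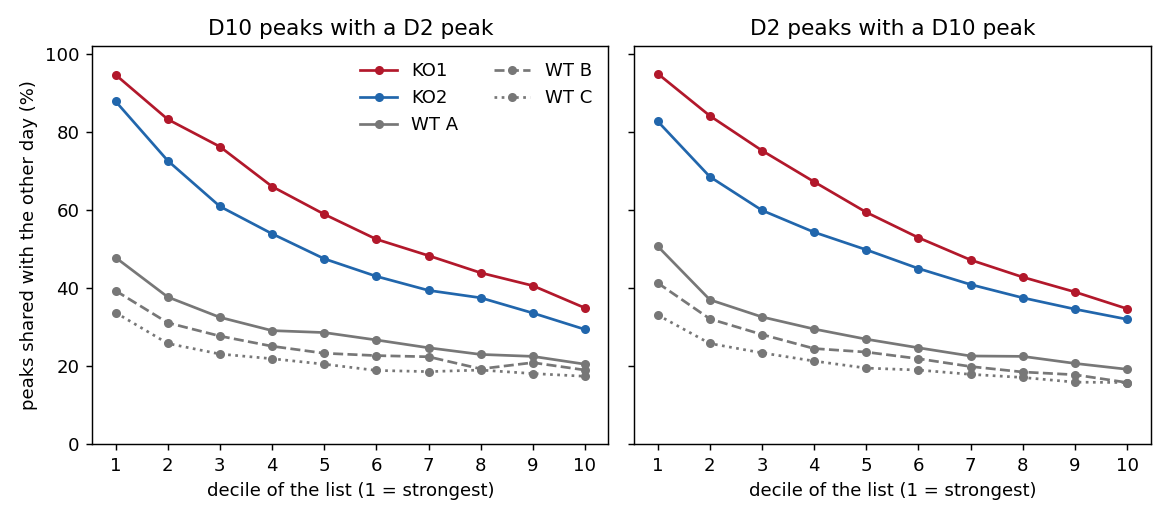
Share of peaks with a peak of the same line on the other day, by decile of the 54997 strongest peaks of each list from strongest (1) to weakest (10), for KO1, KO2 and WT A, B and C; left, D10 peaks with a D2 peak, right, D2 peaks with a D10 peak. In the strongest decile of D2 peaks KO1 (94.9%) and KO2 (82.7%) lie above the WT replicates (33.1% to 50.7%).

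Across 10 kb windows no late change common to both lines passed the test. Windows were compared on log2(covered bp + 200) under the strongest peaks, each library scaled to the mean total, and 15736 windows entered limma, with calls at a Benjamini-Hochberg adjusted p under 0.05. Between KO D10 and KO D2, 0 windows (0.0%) were called and the smallest adjusted p was 0.513. At an unadjusted p under 0.05 there were 394 windows, 2.50% of those tested, and the median change was -0.04. With 2 libraries a day, the count of 0 does not show that the windows were unchanged. Windows in which both D10 values lay above both D2 values, under the strongest and under all deposited peaks alike, numbered 149 (0.947%), and those with both below numbered 557 (3.54%). Under the scaled strongest peaks alone, 1286 (8.17%) lay above and 1493 (9.49%) below, so the split depends on the peaks used. All deposited peaks entered unscaled here, with the KO1 list at D2 the longest, and the part of list length was not tested. A single window was called with a pseudocount of 50 bp and 57 (12 higher, 45 lower) with KO1 D10 left out, where KO2 D10 stands alone. The windows below were picked after their values were seen, since none passed. That called at 50 bp, chr17:47580001-47590000, had 898 scaled bp in KO1 and 1090 in KO2 at D10, against 0 in both at D2 (log2 change 2.57, SE 0.44, limma adjusted p = 0.513). When every deposited peak was counted, it held 3273 bp in KO1 and 1259 bp in KO2 at D10, against 2383 bp and 1624 bp at D2, so there the lines moved in opposite directions. At chr17:28120001-28130000 both sets of peaks gave the same order, with 721 bp in KO1 and 902 bp in KO2 at D10 against 370 bp and 340 bp at D2 under all deposited peaks. The largest negative change among windows with the same order under both sets of peaks, chr19:55940001-55950000, had 1049 bp in KO1 and 936 bp in KO2 at D10, against 2113 bp and 1293 bp at D2 under all deposited peaks (log2 change on the scaled strongest peaks -2.70, SE 0.68). Where strongest peaks are at 0, the log2 value depends on the 200 bp added.

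The late change in KO differed from that in WT in 1733 windows (11.0%; limma interaction, 2 KO and 3 WT libraries a day), 1471 with KO above WT and 262 with KO below. WT itself changed in 6284 windows (39.9%), with 1094 higher and 5190 lower at D10. The median window had a difference of 0.75 on the log2 scale, and relative to it 329 windows were above and 416 below, so the split changes with the centre used. The count was 1067, 918 and 934 without WT D2 A, B and C, and 802, 2721 and 997 without KO1 D10, KO2 D10 and KO2 D2. With all 102197 covered windows entered, KO was above WT in 1143 and below in 2195, and WT itself rose in 7894 and fell in 6964. The split thus also depends on which windows are entered. In the 1094 windows of the main test that rose in WT, with a median of 2.15 there, the median late change was 0.00 in KO1 and 0.22 in KO2. Of them, 32.7% in KO1 and 58.2% in KO2 were above 0. In those that fell in WT, with a median of -2.20, it was 0.12 in KO1 and -0.22 in KO2, and 40.2% in KO1 and 62.4% in KO2 were below 0. Over all windows the medians were 0.00 in KO1 and -0.02 in KO2, with 49.9% in KO1 and 44.5% in KO2 above 0 and 46.9% in KO1 and 51.1% in KO2 below. The windows named next were chosen after their values were seen. At chr11:76170001-76180000 the strongest peaks covered 2114 scaled bp in KO1 and 2237 in KO2 at D10, against 2516 and 570 at D2. The 3 WT libraries had 0 there at D10, against 3936 ± 606 bp at D2 (SD, n = 3), and the difference in late change was 5.08 (SE 0.67, limma adjusted p = 0.00134). In the other direction, chr2:76550001-76560000 had 0 scaled bp in both KO lines at D10, against D2 values of 336 in KO1 and 0 in KO2. WT had 4345 ± 1142 bp at D10 against 0 at D2 (SD, n = 3), a difference of -5.18 (SE 0.83, limma adjusted p = 0.00259).

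The lines' late changes ran against each other over the windows. Pearson's r across the 15736 windows was -0.26 between the late change of KO1 and that of KO2, against 0.69 to 0.74 between pairs of WT replicates. Against the mean late change of WT it was -0.13 for KO1 and 0.21 for KO2. Windows are not independent replicates, and these values describe single libraries, so they carry no p. A test of the line difference in late change took its spread from WT libraries of the same day, since each KO cell holds 1 library. Its calls compare these 4 libraries, assumed to vary like WT ones, and do not establish a difference between lines. It called 20 windows (0.127%), 12 with KO1 above KO2 and 8 below. In all 20 the lines moved in opposite directions, 0 lay on chromosome 5, and the smallest adjusted p was 0.0471. A call on the difference between lines favours windows where they moved in opposite directions, so that direction is no separate result. The spread of the called windows was small, since the 10 largest differences had an SE of 0.67 to 0.79 against a median SE of 1.12 over all windows. The count was 0 with any WT D2 or D10 library left out and 0 with all deposited peaks, against 259 with WT D0 C left out. Alone, the late change of KO1 was called in 0 windows (0.0%; 1343 at an unadjusted p under 0.05) and that of KO2 in 10 (0.0635%), and 0 of KO2 with any WT D2 or D10 library left out, against 230 without WT D0 C.

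Among these windows, chr8:66680001-66690000 had the same order of libraries under both sets of peaks, but the call did not hold under all deposited peaks (limma adjusted p = 0.224 scaled and 0.27 unscaled). On the strongest peaks it had 1996 scaled bp in KO1 and 0 in KO2 at D10, against D2 values of 0 in KO1 and 848 in KO2 (a difference of 5.85 on the log2 scale, SE 0.74, limma adjusted p = 0.0471). All deposited peaks gave 2368 bp and 0 bp at D10, against 299 bp and 1425 bp at D2. The KO D0 libraries had 1502 scaled bp in KO1 and 2172 in KO2, WT D0 libraries 846 ± 47 (SD, n = 3) and WT D10 libraries 0, so the window was covered in every D0 group and at D10 in KO1 but not in KO2 or WT. At chr12:72390001-72400000 it was 1754 scaled bp in KO1 and 0 in KO2 at D10, against 0 and 937 at D2 (5.80, SE 0.74, adjusted p = 0.0471 in limma). WT values were 1969 ± 441 scaled bp (D0), 390 ± 98 (D2) and 0 (D10), as SD over 3 libraries. All 5 of the largest differences with KO1 above had 0 scaled bp in every WT D10 library. Since the spread comes from WT, windows where WT libraries of a day are alike are called more readily. That WT pattern is thus not separate from the choice of windows.

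In the other direction, chr10:127180001-127190000 had 402 scaled bp in KO1 and 2780 in KO2 at D10, against 2183 and 0 at D2 (log2 difference -5.88, SE 0.67, limma adjusted p = 0.0471). With all deposited peaks it had 1601 bp and 3435 bp at D10, against 3782 bp and 792 bp at D2. WT values were 656 ± 76 scaled bp (D0), 2554 ± 266 (D2) and 1246 ± 347 (D10), as SD over 3 libraries. At chr17:30330001-30340000 the values were 113 scaled bp in KO1 and 2268 in KO2 at D10, against 1393 and 134 at D2 (-5.23, SE 0.75, limma adjusted p = 0.0471). WT covered none of it at D0, 272 ± 72 scaled bp at D2 and 2083 ± 279 at D10 (SD, n = 3), and the KO2 value at D10 lay within the WT D10 range of 1820 to 2376. All 5 of the largest differences with KO1 below had strongest peaks in every WT D10 library, a pattern likewise not separate from the choice of windows.

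**Figure D5:**
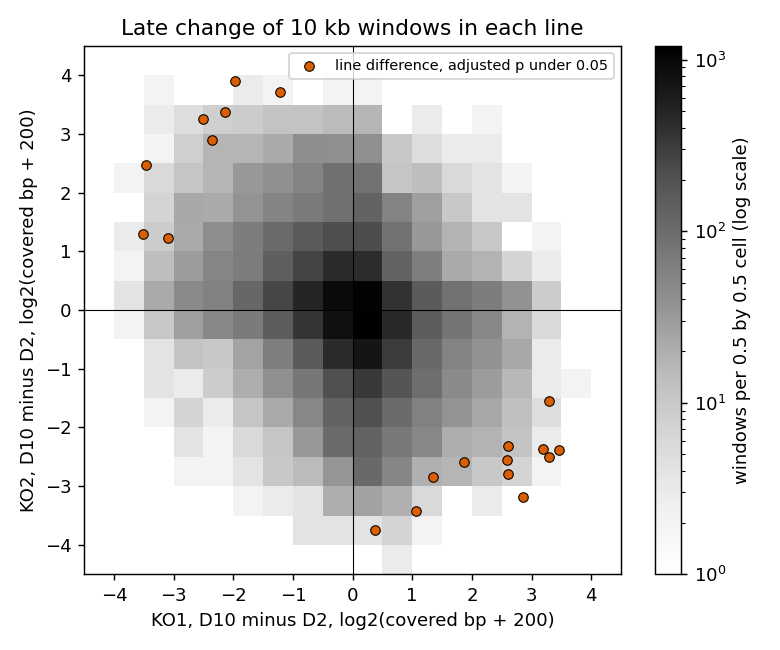
Late change (D10 minus D2, log2(covered bp + 200)) of 15736 windows of 10 kb in KO1 (x) and KO2 (y), as windows per cell on a log grey scale; orange points are the 20 windows called for the line difference. The cloud leans from upper left to lower right (r = -0.26). The called windows sit in the 2 corners where the lines moved in opposite directions, which choosing them by the line difference favours.

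Set side by side on a day, the single libraries of KO1 and KO2 gave more calls at D10 than at D2 on the strongest peaks, and 0 on both days with all deposited peaks unscaled. These calls again compare 1 library with 1, with the spread of WT. At D10 there were 748 (4.75%), 504 with KO1 above KO2 and 244 below, against 256 (1.63%) at D2, 174 above and 82 below, by limma. The growth of the count itself was not tested beyond the line difference above. Of the 924 windows called on either day, 74 were called on both in the same direction. With all deposited peaks, scaled, 238 were called at D10 and 0 at D2. At D2 the count was 12, 0 and 36 without WT D2 A, B and C, 167 and 44 without WT D10 A and B, and 609 without WT D0 C. At D10 it was 429 and 408 without WT D2 B and WT D10 B, and 1454 without WT D0 C.

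Part of what set KO1 apart sat on chromosome 5 on both days. It held 11.8% of the strongest peaks in KO1 and 4.68% in KO2 at D10, against 12.8% and 5.01% at D2, where the 9 WT libraries ran from 5.48% to 6.74%. KO1 lay above and KO2 below every WT library on both days, and the KO1 excess reached along the chromosome, with both KO1 libraries above all 9 WT libraries in 15 of 16 bins of 10 Mb. At D0 the chromosome held 10.4% in KO1 and 5.43% in KO2, so the KO1 excess was present before D2. On chromosome 5 lay 126 of the 504 windows with KO1 above KO2 at D10, against 64 of 174 at D2. With the chromosome left out, the counts were 335 above and 211 below at D10, against 71 and 50 at D2. The correlation of the lines' late changes was -0.26 with and without it. The run names of the deposited lists come in styles, with KO1 sharing that of WT B and KO2 that of WT C. Line and style cannot be told apart within KO. WT B and WT C, which differ in style likewise, shared 30.0% of bp at D10 and 48.4% at D2, and their late changes had r = 0.74. The part of style in the KO difference was not tested.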

How the data were processed

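5hmC was captured from sonicated genomic DNA by glucosylation with an azide sugar, biotin coupling and streptavidin beads, per the labels' protocols. Bowtie, SAMtools, MACS2 and the mm9 build are listed in the submitters' processing notes, with their versions not given in the sources used. Each library has its own deposited peak list with the authors' score, their fold enrichment as a ratio to the background, and -log10 of p and q per peak. They ranked or filtered the peaks of a list and, through the steps of the fold values, gave relative depth. Absolute depth is unknown.

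Groups follow the titles. Whether replicates came from separate cultures is not in the labels, so p-values reflect the spread of these libraries, possibly a technical spread. Lists were compared by bp shared, presence at 1 bp in merged regions, and covered bp in 10 kb windows with a mean of at least 500 scaled bp over 15 libraries (Python 3.11.15, R 4.3.3, limma 3.58.1 with trend and robust, checked on simulated data, where most changed windows were missed in the KO contrast and every one in the line contrast). KO contrasts came from a fit of 6 groups. Line contrasts gave each KO library a cell of its own, assumed to vary like WT libraries of a day. The titles name the same line on each day, so the line pairs KO samples; the KO1 minus KO2 differences at D10 and D2 correlated by 0.23 over windows and by 0.17 without chromosome 5.

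The rule for names took the 5 longest regions gained and the 5 lost in both lines and the 3 longest per line, and the 5 largest window differences between lines each way, with others said to be chosen after their values were seen. Only some of these are described. Nothing on chromosome 18 is named. Tests on genes and the 6 gene lists set up for this comparison were not run for want of an annotation of mm9. The comparison, classes and lists were chosen with earlier results of these data known.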

Additional observations from a re-analysis of the deposited data

Results flagged for a closer look

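Several late changes had opposite signs in the lines, each from 1 library a line and day, and those below other than of windows were not tested. The overlap with a line's own D0 list changed by 11.6 points in KO1 and -9.5 points in KO2. The share of strongest peaks in the mESC 72 hour list changed by -0.85 points in KO1 and 1.41 points in KO2, and that in the 12 hour list by -2.60 points in KO1 and 2.51 points in KO2. The share of WT D0 only regions with a peak changed by 16.8 points in KO1 and -6.97 points in KO2, and that of WT D10 only regions by -6.66 points in KO1 and 7.71 points in KO2. By the interaction in limma, the late change of 1733 windows differed between KO and WT. For KO1 against KO2, limma with the spread of WT libraries called 20 windows from 1 library a line and day, and 0 with any WT D2 or D10 library left out or with all deposited peaks.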

How the results depend on the processing

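Of 182 values under other settings for the comparisons, 92 stayed on the same side, within the replicate spread or within 1.5 times. The KO1 change against the mESC 0 hour list turned to 0.23 with all deposited peaks. Over libraries left out in turn, the log2 change in covered bp ran from -0.44 to 0.11 and so crossed 0, regions gained in both from 4225 to 23919 and lost in both from 14710 to 33613, as fewer lists are asked to match. The windows called ran from 0 to 57 (KO D10 against D2), 802 to 2721 (KO minus WT), 0 to 259 (line difference), 0 to 230 (KO2 alone), 0 to 609 (KO1 against KO2, D2) and 408 to 1454 (D10). Leaving out WT D0 C was chosen after seeing the data.

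With all deposited peaks, overlaps were 44.5% and 36.2% (own D2 in KO1 and KO2), 24.5% (lines at D10) and 32.6% (D2), the chromosome 5 gap between the lines 6.20 and 5.56 points at D10 and D2, and windows called, scaled then unscaled, 2859 and 3534 (KO minus WT), 0 and 0 (line difference and KO2 alone), 238 and 0 (lines at D10) and 0 and 0 (D2). At the shortest KO length, overlaps were 44.7%, 36.1%, 24.5% and 32.5% in the same order. The strongest peaks left 2090 regions lost in both, 8445 opposite and 13353 kept, with 8.18% of KO1 gains in WT D10. Asking for 50% of a region kept 22231. For the line difference, KO1 alone, KO2 alone, lines at D10 and lines at D2, a pseudocount of 50 bp called 412, 95, 717, 1142 and 704 windows, and 1 for KO D10 against D2. In the same order, entering every covered window called 9955, 4129, 7701, 8610 and 7184, where many windows have no WT spread, and 3338 for KO minus WT. A minimum of 2000 bp called 60 (KO minus WT), 0 (line difference), 0 (KO2 alone), 4 (lines at D10) and 1 (D2), and windows of 20 kb 816, 1, 4, 310 and 161. A pseudocount of 1000 bp called 0 for KO2 alone, chromosome 5 left out gave 121 at D2, and KO minus WT relative to the median window 745. Except where stated, the cause was not tested. With line as a replicate block, 0 windows were called for KO D10 against D2 and 2090 for KO minus WT. The line contrasts have no such fit. Over the named line-difference windows and all settings, the call was lost 84 times and held 59 times. Unreplicated lines and unknown absolute depth limit what a single list can show.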
